A study of Mus musculus
Mus spretus with 18 samples.

Results

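Expression of 13743 genes was compared between fibroblasts treated with pladienolide B (PladB) and fibroblasts given DMSO alone. The cells were a line derived from F1 hybrids of C57BL/6J and SPRET/EiJ mice, so that both groups carried 1 genome copy of each strain. PladB was used at 0.1 µM for 4 h, and the control cells received an equal amount of the solvent DMSO for 4 h. Each group had 2 libraries, which makes 4 of the 18 libraries of a series that otherwise covers tissues and embryonic stem cells of the same cross. The members are the genes of the TPM table (a share of the library's RNA corrected for gene length and scaled to the same total in every library) with a mean of 1 or more in at least one of both groups, which holds for 13743 of 38924 listed genes (35.3%). Of these, 11802 reached that level in both groups, 1629 in DMSO alone and 312 in PladB alone, and the genes of the last 2 kinds had to differ to some degree. The gene nearest to the limit on the inside was Gm8251 with a mean of 1.00 TPM, and the nearest outside was Tram1l1 with 0.999988 TPM.

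PladB is a macrolide that binds the SF3B complex of the U2 small nuclear ribonucleoprotein, the particle that recognizes the branch point of an intron at the start of spliceosome assembly. When SF3B is blocked, exons are skipped or introns are kept, and transcripts that are not spliced correctly can be held in the nucleus or degraded. Within hours, the level of an mRNA then depends on how much correctly spliced RNA is still made and on how stable the mRNA already present is. Stable housekeeping mRNAs are known to turn over slowly, whereas mRNAs of immediate early genes, cytokines and cell cycle regulators are known to be short-lived.

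The replicates were close to each other. Across the 13743 genes, log2 TPM correlated with r = 0.993 between both DMSO libraries and with r = 0.995 between both PladB libraries, against 0.823 to 0.829 between conditions, which is a description across genes. The labels do not say whether the libraries of a group came from separate cultures of the line, so p-values measure the spread between these libraries, which may be technical. All 12 fibroblast markers were measured, and their summed level was 14269 to 14650 TPM in DMSO and 17448 to 18380 TPM in PladB. Of the epithelial markers 1 of 7 reached 1 TPM in any library, of the leukocyte markers 2 of 7, of the endothelial markers 0 of 5, of the muscle markers 1 of 5, of the neural and glial markers 2 of 5 and of the adipocyte markers 1 of 5. Summed over each list, the leukocyte markers held 12.6 to 12.7 TPM in DMSO and 11.8 to 14.2 TPM in PladB, and the adipocyte markers, nearly all Fabp4, held 47.4 to 49.2 and 72.0 to 76.3 TPM. The keratin gene Krt14, the macrophage gene Emr1, the T cell gene Cd3e, the muscle regulator Myog and the neuronal gene Rbfox3 were listed at 0 in all 4 libraries. The table gives TPM, from which sequencing depth cannot be recovered, so the depth behind each expression value is unknown.

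After 4 h of PladB most expressed genes held a smaller share of the RNA and a minority held a larger one. With limma on log2(TPM + 0.1), 2160 genes were called higher (15.7% of those tested) and 10040 lower (73.1%) at a Benjamini-Hochberg adjusted p under 0.05, and 1543 genes (11.2%) were not called. By 2-fold or more, 601 genes were higher (4.37%) and 7374 lower (53.7%). Both PladB values lay above both DMSO values for 2530 genes (18.4%) and below them for 10451 genes (76.0%). The median log2 change was -1.15, which is 2.22-fold lower, and the outer percentiles (5 and 95) were -3.38 and 0.93. The spread of the changes (SD 1.49) was larger than that of the differences between replicates (SD 0.27 in each group).

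The shares were concentrated in fewer genes after PladB. The 100 genes with most TPM held 29.3% and 29.6% of all TPM in the DMSO libraries and 42.0% and 41.8% in the PladB libraries. The 2160 genes called higher held 45.2% and 46.2% of TPM in DMSO and 69.2% and 69.3% in PladB, whereas the 10040 genes called lower went from 44.7% and 43.9% to 20.9% and 20.8%. The number of genes with 1 TPM or more was 13457 and 13391 in DMSO and 12051 and 12170 in PladB. TPM adds up to the same total in every library, so that a gene that kept its amount while others lost theirs gains TPM, and the absolute amount of RNA per cell cannot be told from these values. When each library was centred on its own median log2 TPM over the tested genes, all log2 changes moved up by 1.46, the median change became 0.31, and 7085 genes were higher (51.6%) and 4890 lower (35.6%). A gene or list with a log2 change in TPM between -1.46 and 0 therefore lies below 0 in TPM and above 0 when centred, and a change between -1.46 and -1.15 is still a larger fall than that of the median gene.

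**Figure D1:**
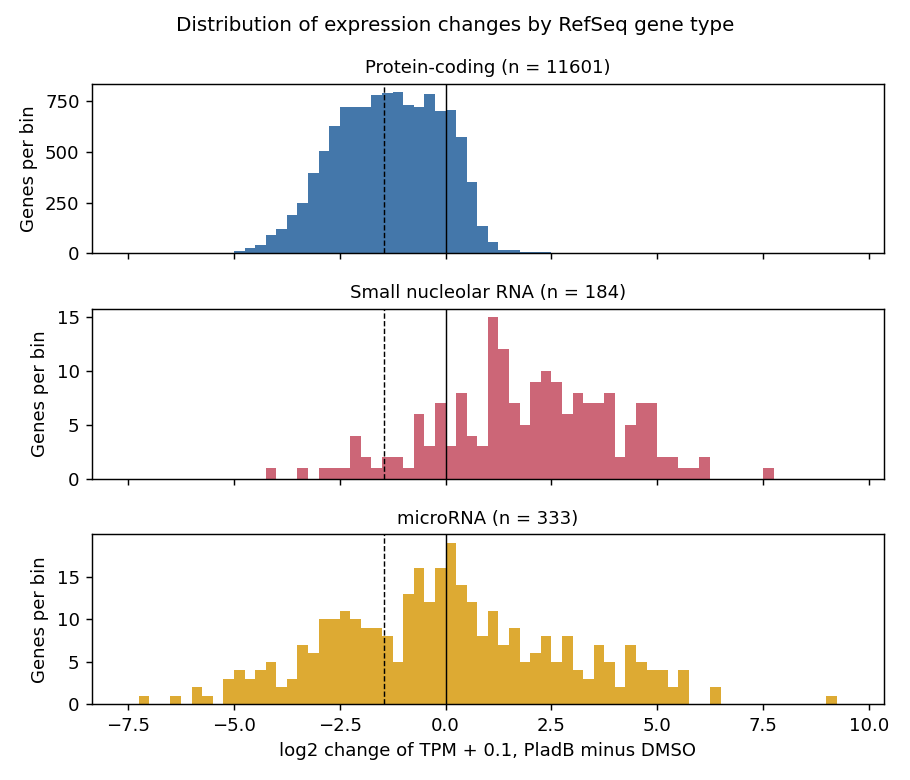
Number of genes per bin of 0.25 on the log2 scale (y axis) against the log2 change in TPM + 0.1, PladB minus DMSO (x axis), for protein-coding, small nucleolar RNA and microRNA genes. The solid line marks no change in TPM and the dashed line marks -1.46, which becomes 0 when libraries are centred on their medians. Protein-coding genes have a median of -1.31 (0.15 when centred) and small nucleolar RNA loci a median of 2.05, and microRNA loci spread to both sides.

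Gene types differed in direction, where 15.7% of all genes rose and 73.1% fell. Of 11601 protein-coding genes, 1418 rose (12.2%) and 9194 fell (79.3%), with a median log2 change of -1.31 (0.15 when centred). Of 356 long noncoding RNA genes, 68 rose and 198 fell, with a median of -0.61 (above 0 when centred). Small nucleolar RNA (snoRNA) loci moved the other way, with 136 of 184 higher and 20 lower and a median of 2.05, and their summed share of TPM was 0.194% and 0.181% in DMSO and 0.857% and 1.13% in PladB. MicroRNA loci were divided, with 111 of 333 higher and 135 lower.

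Most snoRNAs lie inside introns of other genes and are released from the spliced-out intron, and microRNA precursors are cut from long primary transcripts. Of the 184 snoRNA loci, 182 lay within the span of another RefSeq gene (positions on GRCm38, the assembly of mm10), and 178 of these spanning genes were themselves tested. The spanning genes had a median log2 change of -0.22 against 2.08 for the snoRNA loci within them, and 152 of 178 loci had a larger change than the gene around them. MicroRNA loci within another gene had a median of 0.04 against -1.14 for their spanning genes. Of 292 such microRNA loci with a tested spanning gene, 198 had a larger change than that gene. Fragments of an unspliced host transcript that cover the locus and mature snoRNA cannot be told apart in these counts, which hold reads over each annotated exon. The nucleolin gene Ncl had 194 and 198 TPM in DMSO and 165 and 153 TPM in PladB, a log2 change of -0.30 ± 0.05 (SE), which became positive when libraries were centred. Snord82 within it (chr1:86356260-86356327) had 0.341 and 0 TPM in DMSO and 36.1 and 49.9 TPM in PladB, and Snora75, in the same host (chr1:86351170-86351285), had 3.05 and 1.82 against 69.6 and 90.2 TPM. A rise with separated groups was a condition for naming these loci. Both loci were higher in each PladB library than in either DMSO library while their host was not. The same held within Nop56, a component of the snoRNA-protein particles, whose TPM were 50.9 and 50.5 in DMSO and 28.2 and 32.9 in PladB (log2 change below 0 in TPM, 0.73 when centred). There Snord57 went from 3.25 and 3.47 to 87.0 and 110.2 TPM, and Snord110 from 0.175 and 1.53 to 41.5 and 56.1 TPM. Snord82 and Snord110 had a DMSO mean below 1 TPM and were tested only through their PladB level. They therefore had to differ to some degree. Snora20, within the chaperonin gene Tcp1, rose from 4.10 and 3.33 to 107.8 and 120.1 TPM, with Tcp1 itself at 169 and 165 against 157 and 162 TPM (limma, adjusted p = 0.14, log2 change 1.40 when centred).

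The 12 largest rises among named genes with at least 10 TPM in the higher group were led by such short loci and by Malat1. Mir1938 (chr12:40222712-40222811) had 0.238 and 0.231 TPM in DMSO and 167.6 and 185.3 TPM in PladB, a log2 change of 9.04 ± 0.08, within the span of Ifrd1, which fell from 29.9 and 29.3 to 10.3 and 11.3 TPM (a log2 change of 0.012 when centred). Mir1938, with a DMSO mean below 1 TPM, was likewise tested only through its PladB level. Mir5100 went from 1.12 and 0.90 to 34.3 and 31.7 TPM. Malat1, a long noncoding RNA of nuclear speckles (chr19:5795690-5802672), had 112 and 96.3 TPM in DMSO and 5171 and 5315 TPM in PladB, which is 50.4-fold higher (log2 change 5.66 ± 0.08, limma, adjusted p = 3.8e-06). A second entry under the name MALAT1, which may share reads with it, had 273 and 216 against 19206 and 19142 TPM. Summed over the entries of that name, 385 and 312 TPM stood against 24378 and 24457 TPM, so that the RNA made up 2.44% and 2.45% of all TPM in PladB. In the other 14 libraries of the series the sum ranged from 118 TPM in heart to 2269 TPM in cortex, all below both PladB libraries. The nuclear long noncoding RNAs did not rise together. Neat1 fell from 24.2 and 23.2 to 10.2 and 11.5 TPM (log2 change -1.12, above 0 when centred), and of 9 such RNAs 3 rose and 3 fell (8 higher and 1 lower when centred).

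The largest falls were also seen at microRNA loci. Mir23b (chr13:63300484-63300557) had 64.9 and 64.1 TPM in DMSO and 0.367 and 0.406 TPM in PladB, a log2 change of -7.05 ± 0.08. Mir27b, its neighbour (chr13:63300712-63300784), went from 82.7 and 82.2 to 1.10 and 1.63 TPM, and Mir214 (chr1:162223368-162223477) from 70.4 and 67.9 to 1.40 and 0.807 TPM. Both Mir23b and Mir27b lie within the span of Aopep, which fell from a mean of 51.1 TPM in DMSO to 10.6 TPM in PladB, and Mir214 lies within Dnm3os, a long noncoding RNA that fell from 30.3 and 31.7 to 1.10 and 1.33 TPM. These libraries hold fragments of long RNA, so the values refer to precursor transcripts and not to mature microRNAs.

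Of 31 tested genes of a list of NF-kB components and cytokines, 21 rose, 10 fell and 0 were not called, with a median log2 change of 0.83, against 15.7% of all genes higher. With centred libraries 26 were higher and 4 lower. Among the rises, Cxcl2, Ccl20, Csf2 and Tnf had a DMSO mean below 1 TPM. They were tested only through their PladB level, so they had to differ to some degree. Il1a, Il1b and Csf3 were below 1 TPM in both groups and were not tested. NF-kB is a family of transcription factors held in the cytoplasm by inhibitors of the IkB family, and its targets include those inhibitors and many cytokines.

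The inhibitors rose. Nfkbia, which encodes IkB alpha (chr12:55489409-55492647), had 126 and 125 TPM in DMSO and 1080 and 1614 TPM in PladB, 10.8-fold higher with a log2 change of 3.40 ± 0.19 (adjusted p = 4.2e-05). Tnfaip3, which encodes the ubiquitin-editing inhibitor A20 (chr10:19000910-19015410), rose from 10.1 and 9.97 to 308 and 335 TPM, which is 32.1-fold (log2 change 4.99 ± 0.05). Nfkbie, for IkB epsilon, went from 22.05 and 21.43 to 174 and 185 TPM, and Nfkbiz, for a nuclear IkB protein, from 93.9 and 87.6 to 214 and 269 TPM. In all of them the groups did not overlap. For comparison over the series, Tnfaip3 ranged from 0.675 TPM in liver to 32.1 TPM in spleen in the 14 libraries of tissues and stem cells.

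The transcription factor subunits did not follow. Nfkb1 fell from 72.9 and 70.1 to 10.5 and 11.1 TPM (log2 change -2.71 ± 0.05), Rela from 130 and 127 to 27.7 and 32.9 TPM (-2.08), and Relb from 19.5 and 20.3 to 4.49 and 5.42 TPM (-1.99). These 3 falls were larger than that of the median gene. Rel rose from 4.52 and 4.28 to 5.18 and 6.31 TPM (limma, adjusted p = 0.030), a call that was lost without DMSO replicate 1 (log2 change 0.41), without DMSO replicate 2 (0.33) or without PladB replicate 2 (0.23).

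Chemokines and cytokines made up most of the rises. Cxcl2, a neutrophil chemoattractant, had 0.464 and 0.405 TPM in DMSO and 16.9 and 22.2 TPM in PladB, a log2 change of 5.19 ± 0.16. Ccl7 and Ccl2, which attract monocytes, were abundant to begin with, Ccl7 with 422 and 419 against 2377 and 3436 TPM and Ccl2 with 211 and 211 against 905 and 1231 TPM. Ccl20 went from 0.755 and 0.633 to 10.2 and 13.5 TPM, Cxcl10 from 8.39 and 8.75 to 68.1 and 92.5 TPM and Lif from 3.97 and 3.69 to 34.6 and 42.8 TPM. The colony-stimulating factor gene Csf2 was listed at 0 in both DMSO libraries and had 2.49 and 2.93 TPM in PladB, and Tnf had 0 and 0.0141 against 1.87 and 2.60 TPM. Cxcl12, a chemokine that fibroblasts express constitutively, had 792 TPM in both DMSO libraries and 711 and 694 TPM in PladB (log2 change -0.17, 1.29 when centred, and not called at -0.06 when TPM was rescaled over protein-coding genes). Falls in this list were not confined to Cxcl12 and the transcription factor subunits. The chemokine gene Cxcl5 (log2 change -1.04), Csf1 (-0.54), Vcam1 (-0.43), Birc3 (-1.499) and Birc2 (-1.77) were also called lower. Of these, Cxcl5, Csf1 and Vcam1 lay between -1.46 and 0, and so above 0 when centred. PladB replicate 2 had the higher value for each cytokine with a rise that is named here, and both PladB libraries lay above both DMSO libraries.

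**Figure D2:**
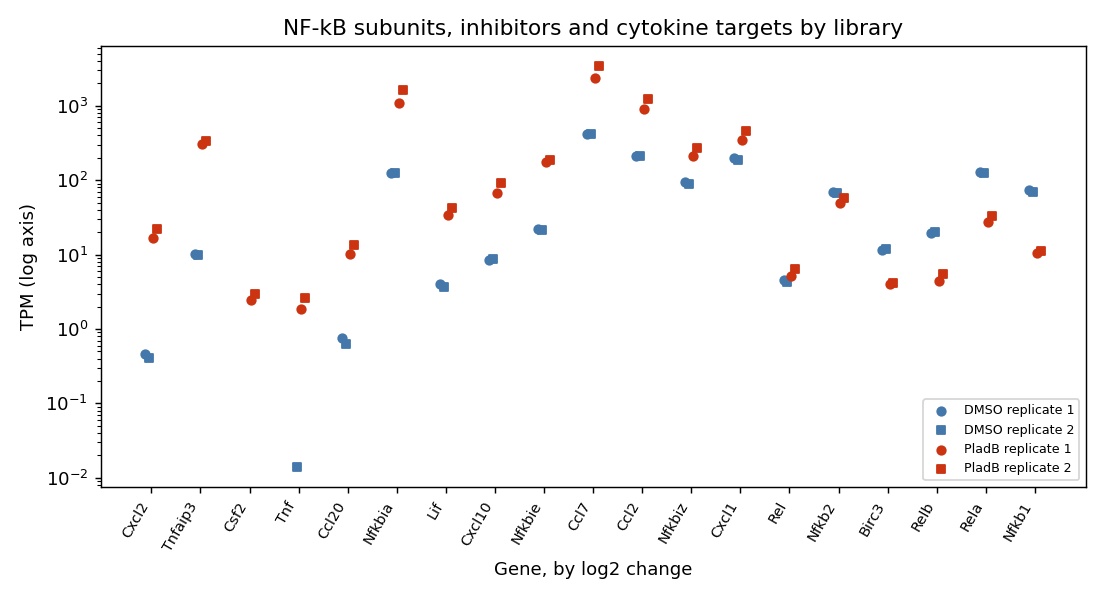
TPM on a log axis (y axis) in each of the 4 libraries for 19 genes of the NF-kB and cytokine list, ordered by log2 change (x axis). Values of 0 (Csf2 in both DMSO libraries and Tnf in DMSO replicate 1) are not drawn. PladB libraries lie above DMSO libraries from Cxcl2 to Rel and below them from Nfkb2 to Nfkb1 (Nfkb2, at -0.35, turns positive when libraries are centred).

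Interferon-stimulated genes, another inflammatory list, fell. Of 17 tested genes, 16 fell and 1 rose, where 73.1% of all genes were lower. The median log2 change was -1.99, and when centred 9 were lower and 4 higher. Stat2, the interferon signal transducer, went from 41.5 and 41.9 to 2.53 and 2.72 TPM (log2 change -3.94 ± 0.06), and Trim25, a ubiquitin ligase of RNA sensing, from 20.2 and 20.2 to 1.82 and 1.91 TPM. Bst2, an antiviral membrane protein, rose from 115 and 120 to 191 and 188 TPM.

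Immediate early genes were divided. Of 42 tested, 22 rose and 15 fell, where 15.7% of all genes rose and 73.1% fell. Their median log2 change was 0.38 (37 higher and 2 lower when centred). Gadd45b, a stress-inducible growth arrest gene, had 210 and 202 TPM in DMSO and 1922 and 2409 TPM in PladB, a log2 change of 3.38 ± 0.11. Klf10, a Krüppel-like repressor, rose from 35.4 and 34.4 to 287 and 353 TPM, Gadd45g from 172 and 167 to 758 and 1025 TPM, and Junb from 299 and 293 to 886 and 913 TPM. Members of the same families went in opposite directions. Jun fell from 179 and 175 to 60.4 and 62.6 TPM (log2 change -1.52 ± 0.04, not called at -0.06 when centred) and Jund from 89.2 and 84.8 to 18.9 and 21.1 TPM (-2.12), whereas Junb rose by 1.60. Myc rose from 78.9 and 73.5 to 153 and 164 TPM (1.05 ± 0.06), and Fos had 40.6 and 34.1 TPM in DMSO and 34.1 and 45.8 TPM in PladB (0.09 ± 0.17, limma, adjusted p = 0.64), with overlapping groups, and was called higher at 1.55 when centred.

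Ribosomal protein genes rose almost as a block. Of 80 cytoplasmic ribosomal protein genes, 78 rose, 1 fell and 1 was not called, where 15.7% of all genes rose. The median log2 change was 0.70, and 80 were higher when centred. Their summed share was 4.76% and 5.12% of TPM in DMSO and 8.15% and 7.95% in PladB. Rplp1, a protein of the ribosomal stalk, had 2403 and 2651 TPM in DMSO and 5082 and 4652 TPM in PladB, and Rps29 had 313 and 358 against 715 and 702 TPM. The entry that fell is listed as Rpl24, with 13.0 and 13.1 TPM in DMSO and 5.29 and 5.45 TPM in PladB (log2 change -1.27 ± 0.06, 0.20 when centred), but its tested exons lie outside the RefSeq position of Rpl24, so its values may belong to a neighbouring gene. A second entry, listed as RPL24 and not counted in the list, had 353 and 410 TPM in DMSO and 472 and 463 TPM in PladB (log2 change 0.30 ± 0.08, limma, adjusted p = 0.016), a call that was lost without PladB replicate 1 (0.28) or replicate 2 (0.31). Ribosomal protein genes have near-identical processed copies, and how reads were divided among them was not tested.

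Some other lists of housekeeping and structural genes also had medians above 0. Single members such as Actb (log2 change -0.49) and Col3a1 (-0.12) lay below 0 in TPM. Proteasome genes and translation factors, given further below, had medians below 0 (-0.37 and -0.88, above 0 when centred). Over all genes 15.7% rose and 73.1% fell. Of 78 nuclear genes of the respiratory chain, 49 rose and 16 fell (median 0.34, with 78 higher and 0 lower when centred), for example Cox8a, a subunit of cytochrome c oxidase, with 857 and 957 against 1277 and 1296 TPM. Of 13 mitochondrially encoded genes, which have no introns, 10 rose and 1 fell (median 0.36, with 12 higher and 0 lower when centred), and their share of TPM was 8.45% and 8.49% in DMSO and 10.9% and 11.04% in PladB. Of 30 extracellular matrix genes other than collagens 17 rose and 10 fell, of 26 collagen genes 11 rose and 5 fell, and of 24 genes of the contractile cytoskeleton 11 rose and 8 fell, all 3 lists with medians above 0 (0.26, 0.12 and 0.07). When centred, 27, 26 and 22 of their genes were higher and 3, 0 and 2 lower. Mgp, matrix Gla protein, had 7344 and 8199 TPM in DMSO and 13276 and 13571 TPM in PladB, and Tagln, an actin-binding protein, had 1533 and 1606 against 2998 and 2917 TPM. Has2, the hyaluronan synthase, fell from 42.4 and 41.9 to 4.05 and 5.295 TPM within the matrix list, and the growth factor receptor Pdgfra, a fibroblast marker, from 441 and 437 to 82.8 and 82.6 TPM.

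Genes of mitosis fell. All 30 tested genes of G2/M phase and mitosis were called lower, against 73.1% of all genes, with a median log2 change of -2.26, and 20 of them remained lower and 4 were higher when libraries were centred. The checkpoint kinase gene Ttk went from 37.6 and 37.0 to 2.08 and 2.46 TPM (log2 change -3.98 ± 0.09), the anaphase activator Cdc20 from 156 and 148 to 17.1 and 17.1 TPM, and Ccna2, cyclin A2, from 156 and 152 to 32.5 and 34.8 TPM. Of 34 genes of G1/S phase and replication, 29 fell and 1 rose, with a median that was 0.15 above that of all genes (median -1.004, with 19 higher and 10 lower when centred). Slbp, which binds the stem-loop of histone mRNAs, fell most of these, from 44.0 and 44.9 to 2.49 and 2.63 TPM, and the histone genes themselves had 6 rises and 13 falls among 33 tested, which became 26 higher and 1 lower when centred.

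Of 27 regulators of transcription elongation, 22 were lower and 2 higher, where 73.1% of all genes were lower (median -1.74, with 14 lower and 10 higher when centred). Polr2a, the largest subunit of RNA polymerase II, went from 48.1 and 41.7 to 5.58 and 4.67 TPM, and Mepce, which caps the 7SK RNA that restrains elongation, from 47.1 and 45.6 to 2.95 and 3.22 TPM. Hexim1, a 7SK-bound inhibitor encoded without introns, fell from 73.0 and 72.2 to 11.1 and 10.9 TPM (log2 change -2.71 ± 0.04). Ccnl1, cyclin L1, a partner of splicing and transcription kinases, rose from 47.3 and 45.8 to 340 and 390 TPM (2.97 ± 0.07).

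Of 344 zinc finger genes named Zfp, 309 fell and 17 rose, where 73.1% of all genes were lower (median -1.82, with 184 lower and 110 higher when centred). They encode mostly transcription factors.

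**Figure D3:**
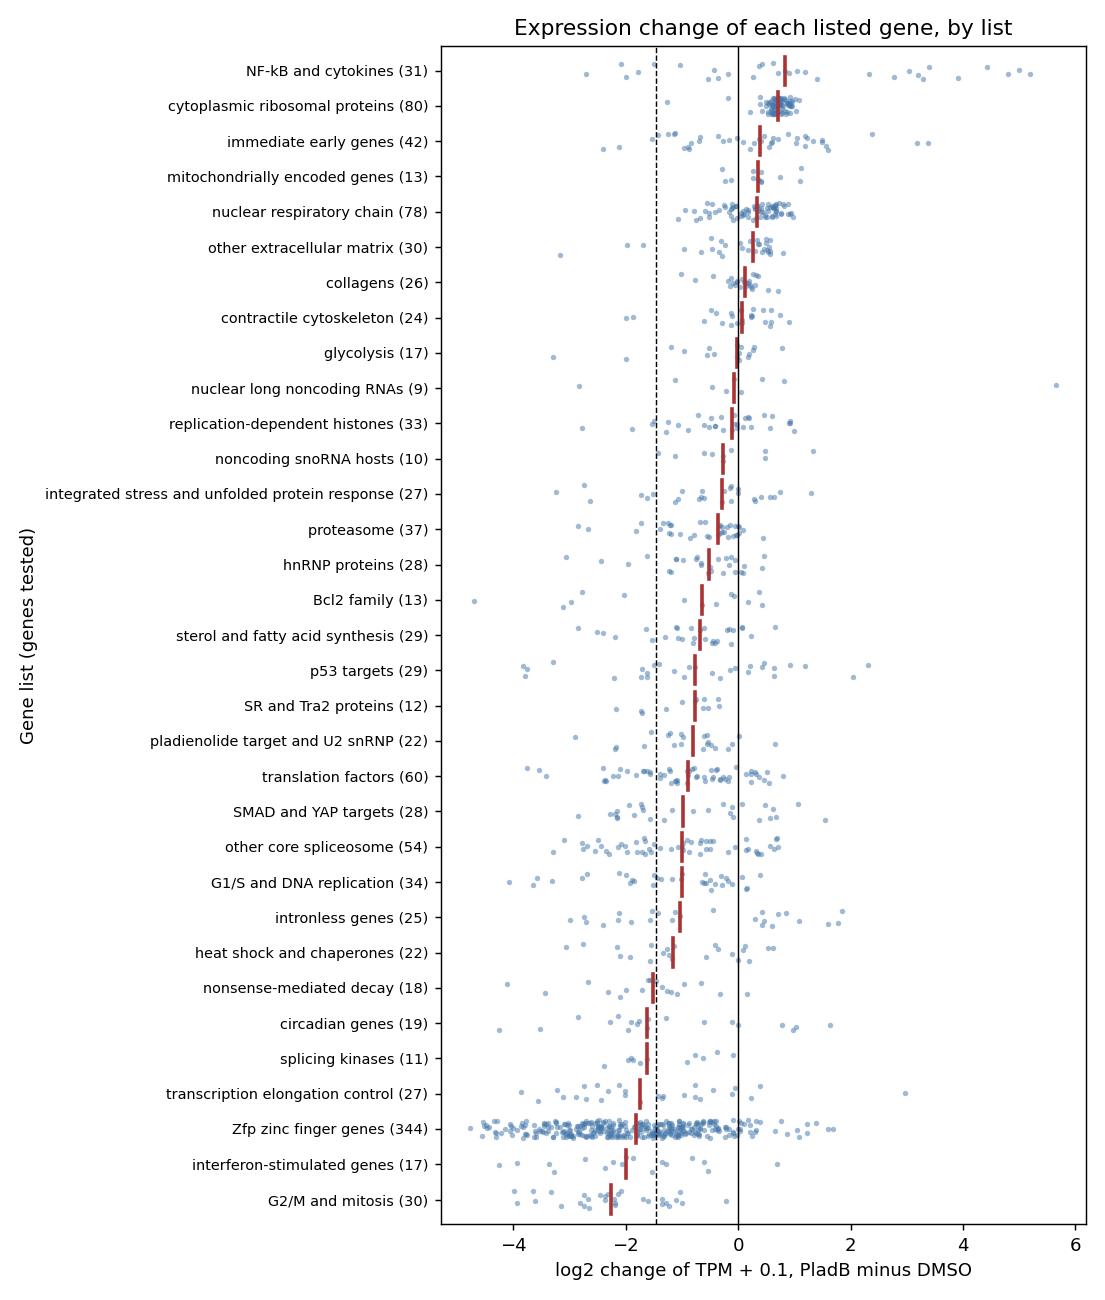
log2 change in TPM + 0.1, PladB minus DMSO (x axis), of each tested gene (points) by gene list (y axis, number tested in brackets), with list medians as red bars. The solid line is no change in TPM and the dashed line is -1.46, which becomes 0 when libraries are centred, so lists with a median between both lines lie below 0 in TPM and above 0 when centred. NF-kB and cytokine genes (median 0.83) and ribosomal protein genes (0.70) lie at the top and G2/M genes (-2.26) at the bottom.

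The splicing machinery was lower in TPM and mostly above the median gene. For comparison, 73.1% of all genes fell and 15.7% rose. Of 22 genes of the SF3B complex and other U2 components, 19 fell and 1 rose (median -0.81), and 17 were higher and 4 lower when centred. Sf3b1, the protein that PladB binds (chr1:54985169-55027501), had 154 and 152 TPM in DMSO and 106 and 104 TPM in PladB, a log2 change of -0.54 ± 0.04 that became 0.92 when centred. Phf5a, which forms the other wall of the binding pocket, had 80.7 and 85.3 against 50.1 and 57.2 TPM (-0.63 ± 0.08, 0.83 when centred). Sugp1, an SF3B1 partner, fell from 46.1 and 45.3 to 5.57 and 6.51 TPM (-2.90 ± 0.09). Of 54 other core spliceosome genes 12 rose and 41 fell (median -0.99, with 30 higher and 20 lower when centred), and Xab2, a protein of the Prp19-associated complex, went from 32.3 and 30.6 to 3.18 and 3.06 TPM. All 12 SR and Tra2 genes fell (median -0.76, with 9 higher and 3 lower when centred), Tra2b from 102 and 102 to 22.1 and 23.0 TPM. Of 28 hnRNP genes 20 fell and 3 rose (median -0.52, with 24 higher and 3 lower when centred). Splicing kinases (10 of 11 lower, median -1.62) and nonsense-mediated decay factors (17 of 18 lower, median -1.51) lay below the median of all genes (-1.15), with 5 of 11 and 5 of 18 members above it, and had 5 higher and 5 lower and 7 higher and 7 lower when centred. Casc3, a core protein of the exon junction complex, fell from 32.05 and 30.9 to 1.499 and 2.00 TPM (-4.11 ± 0.14).

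Lists of cell death and stress genes held members in both directions, where 15.7% of all genes rose and 73.1% fell. Of 29 p53 targets, 8 rose and 17 fell (median -0.76, with 18 higher and 6 lower when centred). Plk2, a polo-like kinase, rose from 145 and 139 to 640 and 775 TPM and Gadd45a from 70.8 and 71.3 to 258 and 334 TPM, whereas Eda2r, a death receptor, fell from 19.5 and 20.1 to 1.26 and 1.35 TPM and Mdm4, a p53 inhibitor, from 32.1 and 31.9 to 2.89 and 3.48 TPM. The cell cycle inhibitor gene Cdkn1a had 197 and 195 TPM against 137 and 148 TPM (-0.46 ± 0.05), and Mdm2, the ubiquitin ligase of p53, had 49.1 and 50.3 against 38.7 and 41.3 TPM (-0.31 ± 0.05), both below 0 in TPM and above 0 when centred (1.01 and 1.15). Of 13 Bcl2 family genes 2 rose and 8 fell (median -0.64, with 8 higher and 5 lower when centred). Neither kind of member moved as one. Of the death promoters, Bmf (11.7 and 10.8 against 0.316 and 0.357 TPM) and Bcl2l11 (10.9 and 10.9 against 1.29 and 1.31 TPM) fell and Bax rose (163 and 162 against 215 and 221 TPM). Of the survival genes, Bcl2l2 fell from 25.1 and 24.8 to 2.67 and 2.97 TPM, and Mcl1 had 132 and 128 against 77.8 and 89.3 TPM (-0.64 ± 0.07, 0.83 when centred). In the integrated stress and unfolded protein response list 6 of 27 rose and 16 fell (median -0.29, with 21 higher and 3 lower when centred). Atf4, its main transcription factor, rose from 501 and 500 to 1178 and 1285 TPM (1.30 ± 0.05), while its target Trib3 fell from 8.47 and 7.83 to 0.603 and 0.983 TPM and Ddit3 had 42.5 and 42.7 against 36.4 and 40.4 TPM (limma, adjusted p = 0.073, called lower without PladB replicate 2 at a log2 change of -0.22, and 1.31 when centred). Atf3 rose from 1.23 and 1.15 to 2.43 and 3.46 TPM.

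The remaining lists lay between these. Over all genes 15.7% rose and 73.1% fell (51.6% higher and 35.6% lower when centred). Among heat shock and chaperone genes 4 of 22 rose and 15 fell (14 higher and 5 lower when centred), among SMAD and YAP targets 7 of 28 rose and 17 fell (14 and 10), among circadian genes 4 of 19 rose and 13 fell (8 and 9), among translation factors 11 of 60 rose and 48 fell (40 and 13), among proteasome genes 1 of 37 rose and 28 fell (31 and 4), among glycolysis genes 5 of 17 rose and 7 fell (15 and 2), among sterol and fatty acid synthesis genes 2 of 29 rose and 24 fell (23 and 5), and among noncoding snoRNA hosts 3 of 10 rose and 6 fell (9 and 0).

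The largest falls of protein-coding genes with at least 10 TPM were in genes of varied function. Rnf135, a ubiquitin ligase (chr11:80183869-80199755), had 13.7 and 13.6 TPM in DMSO and 0.233 and 0.212 TPM in PladB, 61.5-fold lower (log2 change -5.42 ± 0.10). Gcnt1, a glycosyltransferase, went from 14.1 and 14.0 to 0.187 and 0.350 TPM, S1pr2, a sphingosine-1-phosphate receptor, from 77.1 and 74.3 to 2.06 and 1.90 TPM, and Senp8, a protease for NEDD8, from 13.6 and 14.0 to 0.344 and 0.317 TPM. Cldn12, a tight junction protein, fell from 25.9 and 25.1 to 0.708 and 0.728 TPM, and Pdcd4, an inhibitor of translation initiation, from 76.6 and 78.9 to 2.71 and 2.52 TPM. Separated groups were a condition for naming these genes. Their log2 changes lay between -5.42 and -4.84, with standard errors of 0.06 to 0.23.

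The change in expression went with the level and with the length of the gene. Protein-coding genes were binned by their mean TPM over all 4 libraries. The median log2 change was -1.73 for 2116 genes of up to 5 TPM, -1.81 for 4120 genes of 5 to 20 TPM, -1.08 for 3951 genes of 20 to 100 TPM, -0.06 for 1171 genes of 100 to 500 TPM and 0.43 for 243 genes above 500 TPM. Of the last group 193 rose (79.4%) and 25 fell (10.3%). This mean includes the PladB values, so the change itself helped to place a gene in its bin. By mean TPM in DMSO alone, an alternative chosen after seeing the data, the medians in the same order were -1.39, -1.71, -1.40, -0.27 and 0.36, and Spearman's rho of level and log2 change was 0.25 in place of 0.40. By the span of the gene on the genome, the median was -0.01 for 595 genes of up to 3000 bases, -0.54 for 2256 genes up to 10000 bases, -1.36 for 3934 genes up to 30000 bases, -1.78 for 3370 genes up to 100000 bases and -1.71 for 1446 longer genes. The shortest genes had nearly as many rises (249) as falls (252), against 83 rises and 1248 falls among the longest. Across 11601 protein-coding genes Spearman's rho of span and log2 change was -0.33, and it was -0.16, -0.32 and -0.39 from the lowest to the highest tertile of mean TPM. These are descriptions across genes, in which span, level and number of introns go together (rho of span and mean TPM -0.17).

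**Figure D4:**
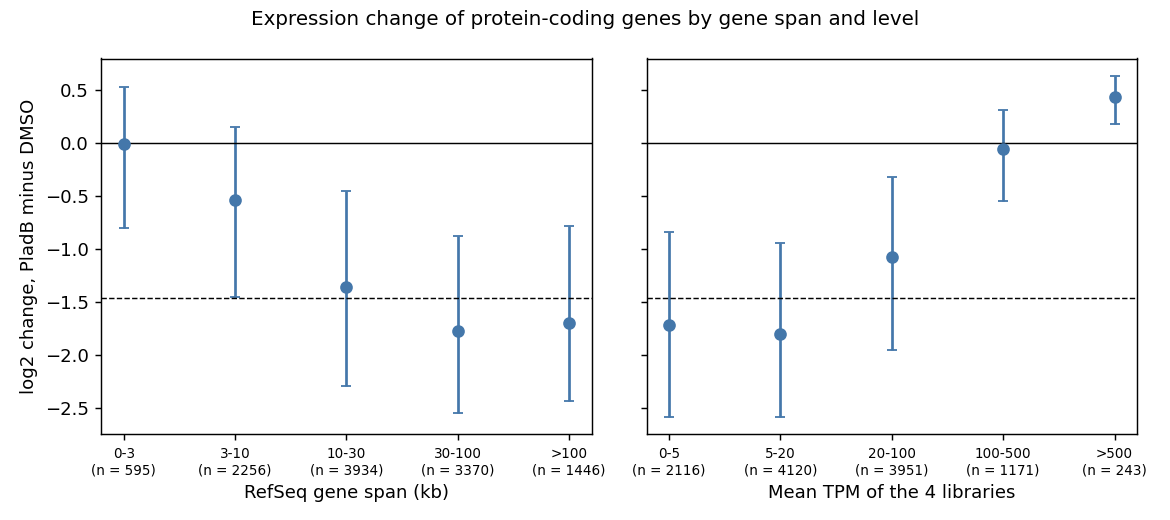
Median log2 change in TPM + 0.1, PladB minus DMSO (points), with the 25th and 75th percentiles (bars), of protein-coding genes by RefSeq gene span in kb (left) and by mean TPM of the 4 libraries, PladB included (right). The dashed line at -1.46 becomes 0 when libraries are centred. The median was near 0 for the shortest genes (-0.01, with 249 rises and 252 falls) and above 0 for the most abundant ones (0.43). Medians of the longer and less abundant bins lay below 0.

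Genes without introns can be made without the spliceosome. Of 25 tested genes known to lack introns (a list added after the values were seen), 11 rose and 14 fell, with a median log2 change of -1.03 (15 higher and 7 lower when centred), and 0 of them had a skipping event that could be tested. Foxc2, a forkhead transcription factor, fell from 13.9 and 13.9 to 1.51 and 1.83 TPM, whereas Epm2aip1 rose from 45.6 and 46.6 to 167 and 167 TPM and Rrs1, a ribosome assembly factor, from 32.3 and 30.1 to 105 and 109 TPM. Over all tested genes 15.7% rose and 73.1% fell (51.6% higher and 35.6% lower when centred). The intronless genes of this short list thus went in both directions, with rises more common than over all genes.

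Exon inclusion and intron retention were measured in the same libraries from reads across splice junctions. For each skipped exon (SE) or retained intron (RI) event, the inclusion level is the share of junction reads, per effective length, that include the exon or intron. With at least 20 junction reads in every library, 56291 SE and 1877 RI events were tested. Summed over the 67961 listed SE events, junction counts came to 129067054 to 151755602 per library. A read may count in several events, so these sums are not numbers of distinct reads. The median tested SE event had 917 and 925 reads in DMSO and 252 and 300 in PladB. Inclusion was lower by 0.1 or more for 4517 SE events (8.02%) and higher for 92 (0.163%), in a quasi-binomial test with Benjamini-Hochberg adjustment. Retention was higher for 651 RI events (34.7%) and lower for 57 (3.04%). The mean inclusion over SE events was 0.943 in both DMSO libraries and 0.911 and 0.908 in PladB, and mean retention over RI events was 0.278 and 0.277 against 0.404 and 0.419.

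Genes with a called skipping event fell more than genes without one. Of 9019 tested genes with an SE event, 2282 (25.3%) had at least 1 event called lower, and their median log2 change was -1.89 against -0.998 for the other 6737, a difference of -0.89 (-0.95 to -0.84 over the 4 pairs of a PladB and a DMSO library). Of those with skipping 2090 were lower (91.6%) and 96 higher (4.21%), and of those without 5140 were lower (76.3%) and 931 higher (13.8%). The difference was -0.43 among genes in the lowest tertile of DMSO TPM, -0.66 in the middle tertile and -1.39 in the highest tertile. The genes with skipping had a median of 28.9 TPM in DMSO and 1585 junction reads per event over all libraries, and those without had 33.3 TPM and 2751 reads. As reads in PladB fall with the gene's level, the precision of the inclusion level falls with it, and its part in the difference was not tested.

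Most of the genes that fell had no called skipping. Among 5164 genes with a tested SE event that fell by 2-fold or more, 1801 (34.9%) had called skipping. Over all 9019 tested genes with an SE event this share was 25.3%. Of the 5164 genes, a further 3217 (62.3%) had neither called skipping nor called retention. Only 1227 genes had a tested RI event, so retention was not measured in most of these 3217 genes. Genes that rose had called skipping too. Of 61 genes with a tested SE event that rose by 2-fold or more, 28 (45.9%) had a called skipping event, against 96 of 1027 (9.35%) of all that rose.

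Genes with the largest losses of inclusion were not those with the lowest medians. By the median change in inclusion of a gene's events, the median log2 change was -0.70 for 4840 genes between -0.01 and 0.01, -1.94 for 2426 genes between -0.05 and -0.01, -1.99 for 677 genes between -0.1 and -0.05, -1.85 for 424 genes between -0.2 and -0.1, -1.42 for 134 genes between -0.3 and -0.2 and -1.39 for 178 genes below -0.3. Spearman's rho over the 9019 genes was 0.37, again a description across genes that share 4 libraries. Gains of inclusion also went with lower medians than changes near 0. They were -1.11 for 261 genes between 0.01 and 0.05, -0.95 for 55 up to 0.1 and -0.92 for 24 above 0.1. Genes near 0 had a median of 47.9 TPM in DMSO and 4260 junction reads. Those between -0.05 and -0.01 had 25.5 TPM and 1580 reads, and those below -0.3 had 16.8 TPM and 948 reads. The part of level and depth was not tested.

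For intron retention, 466 of 1227 genes with a tested event (38.0%) had a called increase, and their median log2 change was -1.503 against -0.88 for the others, a difference of -0.62 (-0.73 to -0.55 over the library pairs). Spearman's rho was -0.24. Among genes with both kinds of event tested, the median was -0.80 for 631 genes with neither called, -1.43 for 226 with retention alone, -1.84 for 89 with skipping alone and -1.55 for 194 with both.

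**Figure D5:**
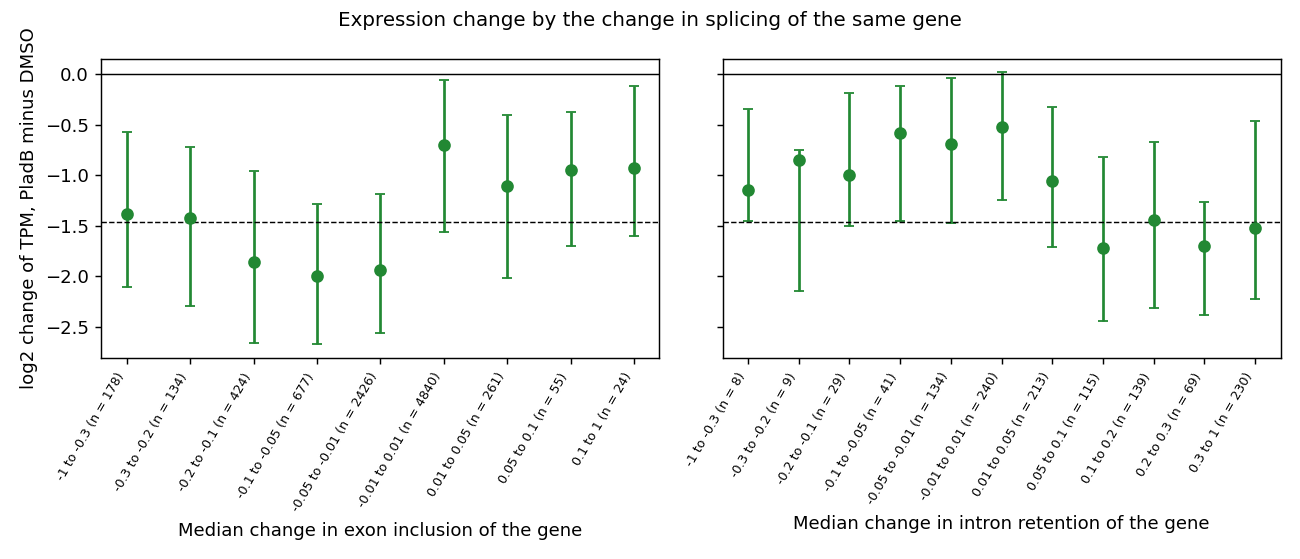
Median log2 change in TPM, PladB minus DMSO (points, with 25th and 75th percentiles as bars), of genes binned by the median change in inclusion of their skipped exons (left) or in retention of their introns (right). The dashed line at -1.46 becomes 0 when libraries are centred. Genes with a change in inclusion within 0.01 of 0 had the highest median (-0.70), and medians for losses of 0.01 to 0.2 (-1.94 to -1.85) lay below those for larger losses (-1.42 and -1.39).

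The gene lists differed in how often their members had called skipping. Of 77 ribosomal protein genes with a tested SE event, 1 had a called event, under the entry listed as Rpl24, whose exons lie outside the position of that gene. Of 67 respiratory chain genes 2 had called skipping, and of 22 collagen genes 1. In contrast, 10 of 11 splicing kinase genes, 13 of 24 elongation regulators, 93 of 167 Zfp genes and 16 of 25 NF-kB and cytokine genes had called skipping, against 25.3% of all genes with a tested event. Called skipping was also found in 8 of 12 circadian, 9 of 16 immediate early and 12 of 22 p53 target genes. Within the NF-kB and cytokine list 21 of 31 genes rose, and how many of these also had called skipping was not counted.

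The 3 genes with called events that rose most were Tnfaip3, Nfkbia and Gadd45b. In Tnfaip3 the intron at chr10:19003758-19004456 was retained at 0.0880 and 0.0508 in DMSO and at 0.960 and 0.962 in PladB, with 204 reads or more per library (adjusted p = 3.1e-08), so that the larger part of the RNA counted at this intron in PladB was unspliced there. The Tnfaip3 exon at chr10:19006863-19007033 was included at 1.0 in DMSO and at 0.766 and 0.735 in PladB. In Nfkbia the exon at chr12:55491670-55491778 was included at 0.9995 and 1.0 in DMSO and at 0.876 and 0.873 in PladB with 3819 reads or more per library, and in Gadd45b the exon at chr10:80930448-80930549 at 1.0 in DMSO and at 0.882 and 0.889 in PladB with 5184 reads or more. In these genes the included form stayed the larger one. Ccnl1 had 8 of 16 SE events and 2 of 2 RI events called, with the intron at chr3:65948009-65948261 retained at 0.0506 and 0.0476 in DMSO and at 0.632 and 0.587 in PladB. TPM counts exon reads of spliced and unspliced RNA alike, so a rise in TPM in these genes is not a rise in spliced mRNA alone.

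The 3 genes with called events that fell most were Prr11, Cdc42se2 and Kif3c. Prr11, a mitotic regulator, fell from 26.0 and 27.2 to 0.825 and 0.851 TPM, and its exon at chr11:87096963-87097059 went from an inclusion of 1.0 in DMSO to 0.802 and 0.853. Cdc42se2, a CDC42 effector, fell from 46.1 and 46.6 to 2.46 and 2.13 TPM, with the exon at chr11:54756406-54756559 included at 1.0 and 0.988 against 0.951 and 0.732. Kif3c, a kinesin, fell from 21.2 and 19.9 to 0.890 and 1.04 TPM, with the exon at chr12:3390438-3390554 included at 0.995 and 1.0 against 0.938 and 0.705. In the last 2 genes both PladB libraries differed widely in inclusion, with as few as 40 and 21 reads. Mdm2 had a larger loss of an exon at a smaller change in TPM. Its exon at chr10:117691145-117691222 was included at 1.0 in DMSO and at 0.381 and 0.448 in PladB, with 406 reads or more. Slbp had 3 of 5 SE events called, the one with most reads at chr5:33646010-33646069 with an inclusion of 0.996 and 0.998 against 0.809 and 0.854.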

How the data were processed

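Expression values were the deposited TPM per gene. Per the study's methods, the authors aligned strand-specific paired reads with HISAT2 2.0.1 to mm10 and a SPRET/EiJ genome, counted fragments over Ensembl 74 exons with featureCounts (fractions for fragments that overlap several genes) and converted them to TPM; replicates were kept apart. The deposited SE and RI tables of rMATS hold junction counts per library as lists, with effective lengths as scores; as their headers name no condition, the order of conditions came from the table's title and was checked against the allelic tables. The authors' own p-values and differences in these tables were not used.

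Groups followed the labels. Genes were tested with limma 3.58.1 (empirical Bayes with intensity trend) on log2(TPM + 0.1) over the 4 fibroblast libraries. Junction counts were tested with a quasi-binomial model with limma's moderated dispersion, at least 20 reads in each library and a difference of 0.1. P-values were Benjamini-Hochberg adjusted over all features, at 0.05. Both tests were checked on simulated data made from these libraries. Errors after ± are standard errors of the log2 change, and folds are ratios of mean TPM. Positions of genes are from RefSeq on GRCm38.p6, matched by symbol (95.2% of tested genes). Of 8973 matched entries with a tested SE event, 23 had every event outside the RefSeq span. Replicate deviations did not pair across groups (r = -0.02).

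Named genes were the 12 largest rises and falls past the test with separated groups and 10 TPM or more, the extreme and most abundant members of each list, and 12 genes of interest; the ranking within protein-coding genes and some genes within lists were added after values were seen. Members, the 40 gene lists and tests were chosen with earlier results of these data known. Alternatives were other pseudocounts, filters, scalings, fits and leaving out each library.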

Additional observations from a re-analysis of the deposited data

How the results depend on the processing

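The count of genes called higher (2160) ranged from 1938 to 2022 when 1 library was left out, that of genes called lower (10040) from 9668 to 9980, and the 2-fold counts (601 and 7374) from 536 to 638 and from 7321 to 7453. With the replicate block the counts were 2119 and 9995, and 612 and 7386 by 2-fold, but the numbers did not pair the samples. With the block Vim (adjusted p = 0.097), Cdh1 (0.079), Acta1 (0.059), Hsp90ab1 (0.052) and Hnrnpa1 (0.052) lost their calls by limma, and no call of a gene given above changed. Fitting all 18 libraries gave 1394 genes higher and lost the calls of Cdkn1a, Cxcl12, Fabp4, Mdm2, Mgp, Nfkb2, Rel and Tagln. Without the filter on low values the call of Rel was lost. Centring each library on its median gave 7085 higher and 4890 lower, and 4543 and 2549 by 2-fold. Rescaling over protein-coding genes, an alternative chosen after seeing the data, tested only the 11601 protein-coding genes. Of these, 1783 were higher, against 1418 in the main fit, and 187 were higher by 2-fold. The count of 601 above includes noncoding loci, which this alternative left out. With centred libraries these list medians changed from below 0 to above it: U2 and SF3B genes 0.66, other core spliceosome 0.47, SR and Tra2 proteins 0.70, hnRNP proteins 0.94, p53 targets 0.70, Bcl2 family 0.83, stress and unfolded protein response 1.17, heat shock 0.31, SMAD and YAP targets 0.48, histones 1.35, translation factors 0.58, proteasome 1.10, glycolysis 1.44, sterol and fatty acid synthesis 0.78, G1/S 0.46, noncoding snoRNA hosts 1.20, nuclear long noncoding RNAs 1.39 and intronless genes 0.43. So did these genes: Ifrd1 0.012, Mdm2 1.15, Rpl24 0.20, Cdkn1a 1.01, Nfkb2 1.11, Ddit3 1.31, Sf3b1 0.92, Ncl 1.16, Nop56 0.73, Mcl1 0.83, Cxcl12 1.29, Phf5a 0.83, Tcp1 1.40 and Neat1 0.34. The glycolysis median was also above 0 without mitochondrial genes (0.016) or over protein-coding genes (0.092) and ranged from -0.037 to 0.025 when 1 library was left out, that of nuclear long noncoding RNAs from -0.23 to 0.044, and that of histones was 0.086 at 5 TPM or more. The SE events with lower inclusion after PladB (4517) numbered 3000 at 50 reads, 1529 with limma on inclusion levels and 2382 at a limit of 0.2, and 3745 to 4856 when 1 library was left out. The SE events with higher inclusion after PladB (92) numbered 56, 32 and 43 under the same alternatives and 59 to 65 without 1 library (59 or 60 without either DMSO library or without the PladB library listed second), and RI events with lower retention after PladB (57) numbered 30 at a limit of 0.2. The difference in log2 change with exon skipping (-0.89) was -0.65 at a limit of 0.2, -0.79 at 50 reads, -0.58 by the event with most reads, -0.82 with a pseudocount of 1, -0.43, -0.66 and -1.39 within tertiles of DMSO TPM, and -0.95 to -0.79 without 1 library, and that with retention (-0.62) was -0.51 with a pseudocount of 1 and -0.49 in the lowest tertile. No paired analysis was possible for the junction counts because their lists carry no replicate labels. With 2 libraries a group and unknown depth of the TPM values, changes of lowly expressed genes are the least certain.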
